A study of Mus musculus with 20 samples.

Results

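The comparison was between a later and an earlier collection point, D2 and D1, of red cell precursors grown with erythropoietin and without interleukin 6 (IL-6). Its members were the 2 arrays titled D2-Control and the 2 arrays titled D1-Control, 4 of the 20 Clariom S mouse arrays of the series. All 4 held cells of healthy, female, wild-type (WT) C57BL/6 mice: marrow cells purified as lineage negative and then grown in IMDM with fetal bovine serum, albumin, insulin, holo-transferrin and erythropoietin at 2U/µL. The labels do not say how long after the start D1 and D2 were taken. The series gives 2 wild-type mice as the source of the cultured cells but ties no culture array to a mouse, so p-values measure the spread between arrays, which may be technical. The cultures D1-IL6 and D2-IL6 (2 arrays each) came from the same kind of mice and held the same medium with 100 ng/mL recombinant mouse IL-6 from the start. Erythroblasts of healthy double wild-type (DWT) C57BL/6 mice aged 1 year, 1 male and 1 female, formed 3 further groups of 2 arrays: proerythroblasts (stage I), a pool of the basophilic with the polychromatic cells (stage II+III), and orthochromatic cells (stage IV). The cell and stage names are those of the labels, and the method of isolation is not given there. Markers of other blood cells were high in some of these arrays, as given below. Each labelled extract supplied 700 pg of total RNA, which was amplified with a Pico kit.

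Erythropoietin binds its receptor on late erythroid progenitors, and the receptor signals through JAK2 and STAT5 to keep these cells alive while they divide and mature. During terminal maturation the factors GATA1 and KLF1 drive globin, haem and membrane genes, the cells leave the division cycle, the nucleus condenses and is shed, and ribosomes, mitochondria and most other contents are removed by proteolysis and autophagy. Cells depleted of mature lineages also contain progenitors of granulocytes, monocytes, basophils and megakaryocytes, which depend on other growth factors.

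Values are log2 RMA signals, on which a difference of 1 is a 2-fold change, and each change is D2 minus D1 with its standard error (SE) from limma and n = 2 arrays per group. An adjusted p (Benjamini-Hochberg, over 19572 probe sets) under 0.05 counted as passing. Signal was called near background where it lay under the 95th percentile of an array's background probe sets, which was 7.35 to 7.62 in the 4 arrays. Where both arrays of 1 group were near background, the change is also given as a bound from that level. The arrays correlated at r = 0.993 within D1, r = 0.982 within D2 and between 0.896 and 0.904 across the step. The share of named probe sets above background was 38.6% and 39.1% at D1 and 37.3% and 34.9% at D2. The median of the positive control probe sets was 11.45 and 11.48 at D1 and 11.03 and 11.13 at D2. Both measures were lower in both D2 arrays, and their part in the results was not tested.

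Markers of erythroblasts were high in all 4 arrays. Of 14 such markers 9 were measured, and their mean log2 signal was 14.95 and 14.96 at D1 and 15.40 and 15.33 at D2. Slc4a1, which encodes the anion exchanger band 3 of the red cell membrane, read 17.00 and 17.02 at D1 and 17.98 and 17.96 at D2. Kel, the Kell blood group protein, read 15.87 and 15.85 at D1 and 16.01 and 15.80 at D2. The groups overlapped for Kel and not for Slc4a1. The adult globin genes were not analysed here. The embryonic globins Hba-x, Hbb-bh1 and Hbb-y were near background in all 4 arrays.

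From D1 to D2 a large part of the measured transcriptome changed. Genes of nuclear remodelling, ubiquitin conjugation and autophagy rose, as did the glucose transporter Slc2a1 and the survival gene Bcl2l1. Kit, Myb, DNA replication genes, ribosome biogenesis genes and markers of monocytes, granulocytes and basophils fell. Of 19572 probe sets, 8463 (43.2%) passed, 3855 (19.7%) higher and 4608 (23.5%) lower at D2. A total of 10206 had an unadjusted p under 0.05, and the arrays of the groups did not overlap for 75.3% of probe sets. With 2 arrays a group, arrays can also separate where nothing changed, so that share is no count of changed genes. The median change over all probe sets was 0.17. Under quantile normalization it was 0.02 and under median centring 0.04, with 3038 higher and 3809 lower in the first case and 2835 higher and 4948 lower in the second. Among the 3855 higher calls 1986 were near background in all 4 arrays, against 450 of the 4608 lower calls. When the 7350 probe sets with a mean above background over the 8 cultured arrays were counted, 69.3% passed, 19.9% higher and 49.4% lower, with a median of -0.71. Changes of at least 2 on the log2 scale numbered 667 higher and 1579 lower, and changes of at least 4 numbered 138 higher and 125 lower.

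**Figure D1:**
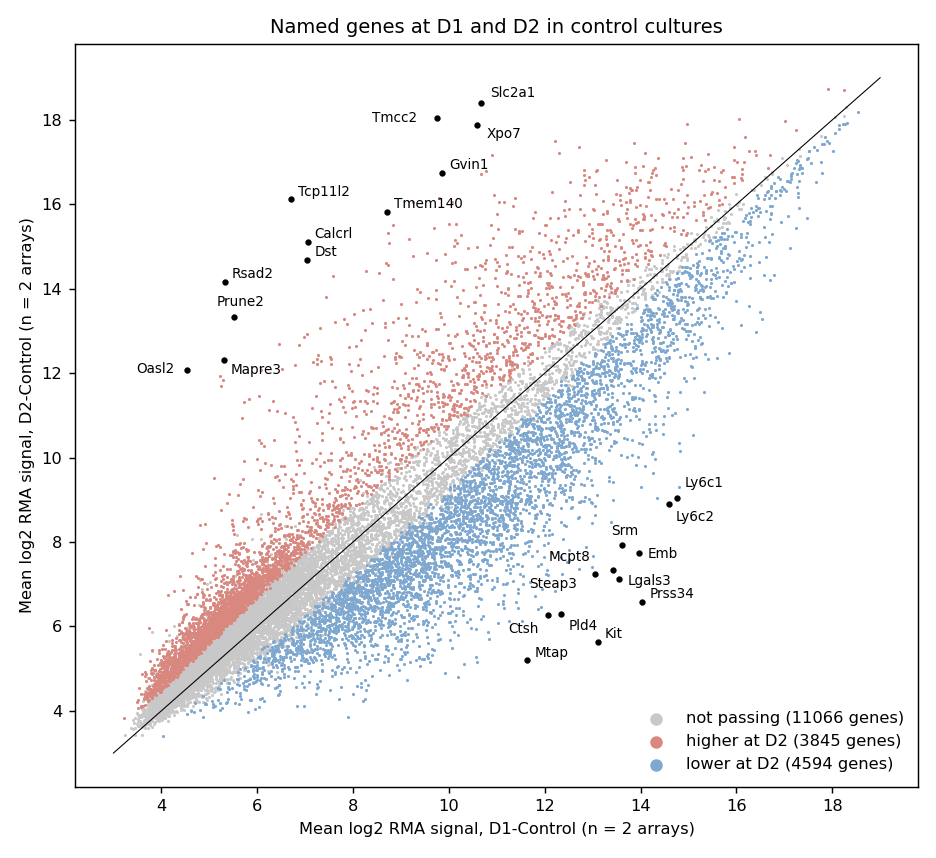
Mean log2 RMA signal of each named gene (1 probe set a gene) in D1-Control (x axis) and D2-Control (y axis), n = 2 arrays each, with the 12 highest and the 12 lowest changes named and a line of equality. Genes that passed in red lie above the line and those in blue below it, and the dense red band at the lower left lies near background in both groups.

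Of the 12 highest rises, those of Tmcc2, Slc2a1 and Xpo7 ended above 17 at D2. Tcp11l2 had the largest change among the genes named: it read 6.68 and 6.71 at D1 and 16.29 and 15.95 at D2, a change of 9.42 ± 0.24 (bound 8.51; limma adjusted p = 3.23e-09). Tmcc2 read 9.64 and 9.87 at D1 and 18.10 and 17.98 at D2, a change of 8.28 ± 0.14 (limma adjusted p = 2.08e-10). Slc2a1, the glucose transporter GLUT1, read 10.71 and 10.62 at D1 and 18.48 and 18.33 at D2, a change of 7.74 ± 0.13 (limma adjusted p = 2.08e-10). At D1 Tcp11l2 was near background, and Tmcc2 and Slc2a1 were above it. That the D1 and D2 arrays did not overlap was a condition for the choice of these genes. Xpo7, a nuclear transport receptor needed for condensation of the erythroblast nucleus, read 10.76 and 10.42 at D1 and 18.07 and 17.70 at D2, a change of 7.29 ± 0.19 (limma adjusted p = 3.83e-09). Calcrl, a receptor subunit for adrenomedullin and calcitonin gene-related peptide, was near background at D1 (7.38 and 6.72) and read 15.23 and 15.01 at D2, a change of 8.07 ± 0.26 (bound 7.51). The cytoskeletal linker gene Dst rose from 7.25 and 6.83 to 14.80 and 14.59 (change 7.65, bound 7.08). Near background at D1 were also Prune2 (change 7.82, bound 5.73) and Mapre3, a protein that binds growing microtubule ends (change 7.02, bound 4.71). Tmem140 was above background in all 4 arrays and changed by 7.11 ± 0.28.

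Interferon-inducible genes supplied 3 of the 12 largest rises, and the whole list of such genes moved in both directions. Rsad2, which encodes the antiviral protein viperin, read 5.47 and 5.17 at D1 and 14.35 and 13.99 at D2 (change 8.85 ± 0.27, bound 6.56). Oasl2, an oligoadenylate synthetase-like gene, read 4.52 and 4.56 at D1 and 11.99 and 12.17 at D2 (change 7.54, bound 4.47). Gvin1, a very large interferon-inducible GTPase of a family of near-identical copies, so that its probes may read several of them, changed by 6.90 ± 0.20. In the list of 23 interferon response genes 8 rose, 6 fell and 9 did not pass, and the median had no settled sign (0.10, or -0.02 under median centring). Over all probe sets 19.7% rose and 23.5% fell. Isg15, a ubiquitin-like modifier, rose from 5.31 and 5.50 to 9.31 and 8.98 (bound 1.53), and Ifit1 rose from 6.34 and 5.76 to 9.34 and 8.86 (bound 1.49). The membrane proteins that restrict virus entry fell: Ifitm1 read 12.91 and 12.75 at D1 and 9.30 and 8.62 at D2, a change of -3.87 ± 0.35 (limma adjusted p = 8.78e-06). Ifitm2 fell by 3.41 and Ifitm3 by 2.50 on the log2 scale; these genes are close paralogs, so part of the signal may be shared. Mx1 (0.77, near background in all 4 arrays), Irf1 (0.10) and Stat2 (-0.21) did not pass.

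Genes of late maturation rose as a group, where 19.7% of all probe sets rose. Of 28 measured genes of nuclear remodelling, ubiquitin conjugation, autophagy and organelle clearance, 22 rose, none fell and 6 did not pass (limma), with a median change of 2.56; 21 of the 22 calls held under all 11 alternatives. Ube2h, a ubiquitin-conjugating enzyme that is abundant in red cell precursors, read 10.88 and 10.47 at D1 and 16.80 and 16.66 at D2, a change of 6.06 ± 0.17 (limma adjusted p = 5.9e-09). Ube2o, a ubiquitin ligase that clears ribosomal proteins from reticulocytes, read 10.73 and 10.83 at D1 and 16.90 and 16.69 at D2, a change of 6.01 ± 0.14. Both genes were lower in each D1 array than in each D2 array. Ulk1, the kinase that starts autophagy, rose from 8.68 and 8.68 to 14.49 and 14.73, a change of 5.93 ± 0.21. Trp53inp1, which takes part in autophagy and in the p53 response, changed by 6.68 ± 0.29, and Tent5c, a poly(A) polymerase, by 5.83 ± 0.22. The autophagosome genes Gabarapl2 (3.91), Map1lc3b (2.08) and Gabarapl1 (1.86) rose less, as did the mitochondrial removal receptor Bnip3l, from 13.91 and 13.66 to 16.45 and 16.34 (change 2.61). Atg4d (0.52), Wipi1 (0.68) and Fundc1 (-0.15) did not pass.

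The regulators of the erythroid programme moved in both directions, as did all probe sets (19.7% higher, 23.5% lower). Of 25 measured, 13 rose and 8 fell (median 1.08), and the 13 rises held under all 11 alternatives while 4 of the falls did. The small MAF partner Mafk read 10.65 and 10.16 at D1 and 14.89 and 15.05 at D2, a change of 4.57 ± 0.20 (limma adjusted p = 7.29e-08). Its partner Nfe2 rose by 3.20 ± 0.16, Mafg by 3.51 ± 0.26, and Bach1, a haem-sensing repressor that also pairs with small MAF proteins, by 2.32 ± 0.14. Trim58, a ubiquitin ligase that acts on dynein before enucleation, read 8.84 and 8.64 at D1 and 14.63 and 14.50 at D2, a change of 5.82 ± 0.24. Foxo3, a factor of antioxidant defence and late maturation, rose from 10.44 and 10.64 to 13.38 and 13.45 (change 2.87 ± 0.19). Tfdp2, an E2F partner, rose by 2.55 and Mxi1, a MYC antagonist, by 3.64. Ldb1, which bridges the GATA1 and TAL1 complex to distant enhancers, fell from 13.77 and 13.91 to 11.30 and 10.94 (change -2.72 ± 0.20), and Bcl11a, a repressor of globin genes, fell by 2.25. The best known regulators changed little. Gata1 read 11.28 and 11.33 at D1 and 11.61 and 11.58 at D2, a change of 0.29 ± 0.23 that did not pass (limma adjusted p = 0.334), although under quantile normalization it was 0.75 and passed (limma adjusted p = 0.0358). Klf1 read 14.74 and 14.83 at D1 and 13.94 and 14.02 at D2, a change of -0.81 ± 0.13 (limma adjusted p = 0.000523), which did not pass when all 20 arrays were fitted together (limma adjusted p = 0.148). Tal1 (0.10) and Zbtb7a (0.23) did not pass.

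The promoters of the late maturation, erythroid regulator and haem synthesis genes were searched for the GATA motif AGATAA on both strands in the 250 bases before each RefSeq gene start (assembly GRCm38.p6). It was present in 5 of 23 late maturation genes (21.7%) and 5 of 23 erythroid regulators (21.7%), and in 10.2% of the 15691 named genes with a promoter in the table. Of those 10 genes, Ube2h, Isg20, Tmcc2 and Trim10 rose, Ldb1 fell and the other five did not pass. Tmcc2 and Ube2h had the largest rises of the 10, and Alas2 was the 1 haem synthesis gene of 13 with a match, so these windows are shown, 5′ to 3′ on the gene's strand with the motif in capitals (TTATCT is AGATAA on the opposite strand). A match is a stretch of letters and shows no binding.
Tmcc2, chr1:132367949-132368198, minus strand: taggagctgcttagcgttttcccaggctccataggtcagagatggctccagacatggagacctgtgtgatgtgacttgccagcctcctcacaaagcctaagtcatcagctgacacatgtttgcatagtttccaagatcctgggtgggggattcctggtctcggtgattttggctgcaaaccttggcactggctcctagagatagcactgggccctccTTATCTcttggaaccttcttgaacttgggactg
Ube2h, chr6:30243804-30244053, minus strand: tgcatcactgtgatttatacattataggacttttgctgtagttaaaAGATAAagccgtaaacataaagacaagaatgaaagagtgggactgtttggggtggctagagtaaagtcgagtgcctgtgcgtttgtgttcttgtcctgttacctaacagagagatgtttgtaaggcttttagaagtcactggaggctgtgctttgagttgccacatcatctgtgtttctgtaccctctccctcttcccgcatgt
Alas2, chrX:150547167-150547416, plus strand: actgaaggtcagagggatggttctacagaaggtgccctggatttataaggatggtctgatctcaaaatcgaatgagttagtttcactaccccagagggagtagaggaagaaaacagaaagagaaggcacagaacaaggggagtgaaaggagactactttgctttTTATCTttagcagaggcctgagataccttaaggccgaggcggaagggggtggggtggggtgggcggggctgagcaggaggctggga

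Haem synthesis genes moved in both directions, as did all probe sets above background (19.9% higher, 49.4% lower). Of 16 measured, 8 rose and 5 fell, and 4 of the rises and 3 of the falls held under all 11 alternatives. The median was 0.48, but 0.30 without D1-Control replicate 2 and 0.27 without D2-Control replicate 1. Alas2, the erythroid enzyme of the first and rate-limiting step, whose promoter is shown above, read 16.03 and 16.07 at D1 and 18.07 and 17.98 at D2, a change of 1.98 ± 0.07 (limma adjusted p = 2.08e-08). Fech, which inserts iron in the last step, rose from 16.10 and 15.81 to 17.39 and 17.31 (change 1.39 ± 0.09). Urod, an enzyme of the middle of the pathway, rose by 1.63 ± 0.13. Alad, the enzyme of the second step, read 15.80 and 15.66 at D1 and 14.61 and 14.68 at D2, a change of -1.08 ± 0.11 (limma adjusted p = 2.21e-05). Alas1, the first enzyme's form in other tissues, fell from 10.97 and 11.78 to 8.58 and 8.10 (change -3.03 ± 0.31). Tmem14c, which is needed for porphyrin import into mitochondria, fell by 1.75, and the porphyrin transporter Abcb6 by 1.48. Both haem oxygenases, which break haem down, rose. Hmox1 read 10.04 and 10.28 at D1 and 15.11 and 15.08 at D2, a change of 4.93 ± 0.22 (limma adjusted p = 8.45e-08), the largest of the list, and Hmox2 changed by 2.36 ± 0.27.

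Iron handling genes fell more often than they rose, as did all probe sets above background (49.4% lower, 19.9% higher, median -0.71). Of 20 measured, 11 fell and 5 rose (median -0.67), and 9 of the falls and 3 of the rises held under all 11 alternatives. Steap3, the reductase that frees iron from transferrin in endosomes, had the largest fall: it read 13.12 and 12.96 at D1 and 7.04 and 7.46 at D2, near background in both (change -5.79 ± 0.33, bound -5.55; limma adjusted p = 4.11e-07). Tfr2, the second transferrin receptor and a partner of the erythropoietin receptor, fell from 12.61 and 12.08 to 8.47 and 8.48 (change -3.87 ± 0.28). Aco1, which is the iron regulatory protein IRP1 when it lacks its iron cluster, fell by 3.31 (bound -2.42), and Ireb2, the other iron regulatory protein, by 1.55. The iron transporter Slc11a2 fell by 1.49. Tfrc, the main transferrin receptor, read 15.17 and 15.20 at D1 and 15.31 and 15.28 at D2, a change of 0.11 ± 0.11 that did not pass (limma adjusted p = 0.424). The ferritin heavy chain gene Fth1 changed by 0.01 and did not pass. Ncoa4, the receptor that delivers ferritin to autophagy, rose from 14.12 and 13.86 to 16.52 and 16.62 (change 2.58 ± 0.14), and Iscu, the scaffold for iron-sulphur clusters, rose by 2.75 ± 0.19.

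Membrane and skeleton genes were already high at D1. Of 21 measured, 11 rose and 4 fell (median 0.47), but 3 of the rises and 2 of the falls held under all 11 alternatives. Among all probe sets above background 19.9% rose and 49.4% fell. The change of Slc4a1 was 0.96 ± 0.06 (limma adjusted p = 1.02e-06). Tmod1, which caps actin filaments in the red cell skeleton, rose from 15.02 and 14.54 to 16.38 and 16.29 (change 1.56 ± 0.15), and Epb42, protein 4.2, by 1.34 ± 0.09. Slc2a1 was the only member that rose by more than 2 on the log2 scale. The water channel Aqp1 read 16.31 and 16.27 at D1 and 14.38 and 14.14 at D2, a change of -2.04 ± 0.12 (limma adjusted p = 5.7e-07). The urea transporter Slc14a1 fell by 1.43, and the adhesion molecule Cd44, which is lost as erythroblasts mature, fell from 11.13 and 11.42 to 8.59 and 8.95 (change -2.50 ± 0.25). The spectrin gene Sptb (0.30) did not pass.

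Targets and partners of erythropoietin signalling changed in different directions, and the median of the list's 21 measured genes had no settled sign (-0.20, or 0.43 under quantile normalization), with 10 that rose and 5 that fell. Bcl2l1, which encodes the survival protein BCL-XL, read 9.92 and 9.65 at D1 and 16.21 and 16.08 at D2, a change of 6.36 ± 0.22 (limma adjusted p = 2.24e-08). The STAT5 target Cish, an inhibitor of cytokine signalling, rose from 10.31 and 10.30 to 14.15 and 13.79 (change 3.67 ± 0.20). The survival kinase Pim1 rose from 13.17 and 12.87 to 15.90 and 15.85 (change 2.86 ± 0.16). All 3 genes were higher in both D2 arrays. Epor, the receptor itself, read 12.14 and 12.22 at D1 and 11.65 and 11.31 at D2, a change of -0.70 ± 0.21 (limma adjusted p = 0.0216), which did not pass under 5 of the 11 alternatives (limma adjusted p between 0.0762 and 0.277). The cyclin genes Ccnd2 and Ccnd3 fell by 1.72 and 1.40, and Socs2 (-0.20) did not pass.

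Genes of the p53 response rose, where 19.7% of all probe sets rose and 23.5% fell. Of 19 measured genes of p53 targets and apoptosis, 11 rose and 3 fell (median 2.47), and all 11 rises held under the 11 alternatives. Gadd45a, a growth arrest gene, read 12.85 and 12.57 at D1 and 17.22 and 17.49 at D2, a change of 4.65 ± 0.15 (limma adjusted p = 1.26e-08). The stress gene Sesn2 rose from 8.51 and 7.92 to 13.50 and 13.50 (change 5.28 ± 0.32). Mdm2, the ligase that limits p53, rose by 2.78, Ccng1 by 2.91 and Cdkn1a, which encodes the cell cycle inhibitor p21, from 14.04 and 14.13 to 17.46 and 16.97 (change 3.13 ± 0.15). Phlda3, Eda2r and the death gene Bbc3 (PUMA) were near background at D1 and above it at D2, with bounds of 1.91, 2.80 and 1.08. Among the genes that fell was Bcl2, a survival gene of progenitors, from 9.78 and 9.28 to 5.76 and 6.07 (change -3.62 ± 0.34, bound -2.05). The death gene Pmaip1 (-0.06) and the death receptor Fas (0.04) were near background in all 4 arrays and did not pass. The list also holds genes with other known inputs, among them Bcl2l1 and Sesn2.

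Stress response genes also rose more often than they fell, where 19.9% of all probe sets above background rose and 49.4% fell. Of 19 genes of the unfolded protein and integrated stress responses, 10 rose and 6 fell (median 0.75), and 7 of the rises and 2 of the falls held under all 11 alternatives. Ddit3, the transcription factor CHOP, read 13.79 and 13.93 at D1 and 17.48 and 17.45 at D2, a change of 3.60 ± 0.10 (limma adjusted p = 4.13e-09). Ppp1r15a, which reverses phosphorylation of the initiation factor eIF2, rose from 11.02 and 10.72 to 15.48 and 15.53 (change 4.64 ± 0.19), and Trib3 rose by 3.74. Eif2ak1, the haem-regulated eIF2 kinase, rose from 13.71 and 13.70 to 15.92 and 16.20 (change 2.36 ± 0.12). Atf4, the factor these signals act through, read 16.70 and 16.80 at D1 and 16.78 and 16.76 at D2 and did not pass (change 0.02 ± 0.08). Asns, a target of ATF4, fell by 0.49, and the chaperones Hsp90b1 and Canx of the endoplasmic reticulum fell by 1.72 and 1.90. Of 20 antioxidant genes 9 rose and 4 fell (median 0.32, or 0.19 under median centring). Cat, catalase, rose from 14.82 and 14.96 to 16.77 and 16.85 (change 1.92 ± 0.11), and Txn1, thioredoxin, fell from 17.04 and 17.12 to 15.66 and 15.77 (change -1.36 ± 0.09). Prdx2, an abundant red cell peroxiredoxin, did not pass (0.01).

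Early progenitor genes fell, with exceptions, where 49.4% of all probe sets above background fell (median -0.71). Of 23 measured, 14 fell and 4 rose (median -0.94), and 8 of the falls and 3 of the rises held under all 11 alternatives. Kit, the stem cell factor receptor, read 12.86 and 13.35 at D1 and 5.78 and 5.49 at D2, near background in both (change -7.47 ± 0.41, bound -5.62; limma adjusted p = 3.09e-07). Myb, a factor that keeps progenitors dividing, fell from 11.67 and 11.43 to 6.59 and 7.42 (change -4.54 ± 0.41, bound -4.06). The progenitor surface protein Cd34 fell from 10.48 and 10.76 to 6.39 and 6.94 (bound -3.14). Each of these 3 genes was above background in both D1 arrays and in neither D2 array. Ikzf1 fell by 2.76 ± 0.16 and Etv6 by 2.30 ± 0.21. Gata2, the factor that GATA1 replaces during erythroid commitment, was higher at D2: it read 10.22 and 11.12 at D1 and 13.35 and 13.29 at D2, a change of 2.65 ± 0.27 (limma adjusted p = 2.41e-05). Runx1 likewise rose from 11.65 and 11.66 to 14.16 and 13.76 (change 2.31 ± 0.19), and Lmo2 rose by 1.80 ± 0.32. Myc, a driver of growth, read 13.51 and 13.37 at D1 and 11.71 and 12.13 at D2, a change of -1.52 ± 0.28 (limma adjusted p = 0.00149) that did not pass when all 20 arrays were fitted together (limma adjusted p = 0.117).

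DNA replication genes fell almost without exception. Of 22 measured, 21 fell and none rose (median -2.50), and 19 of the calls held under all 11 alternatives; Tk1 (-0.16) did not pass. Mcm3, a subunit of the replicative helicase, read 14.57 and 14.59 at D1 and 11.37 and 11.73 at D2, a change of -3.03 ± 0.17 (limma adjusted p = 3.44e-07). Cdt1, which loads that helicase, fell from 13.72 and 13.61 to 10.57 and 10.35 (change -3.20 ± 0.19), and Orc1, of the origin recognition complex, from 12.86 and 12.43 to 9.88 and 9.55 (change -2.92 ± 0.28). Pcna, the sliding clamp, was among the brightest genes of the list and fell from 17.23 and 17.24 to 15.46 and 15.41 (change -1.80 ± 0.07). All of these were lower in both D2 arrays and above background there. Genes that open the cycle fell too. Cdk4 read 14.68 and 14.91 at D1 and 10.54 and 10.17 at D2, a change of -4.44 ± 0.22 (limma adjusted p = 1.81e-07). Ccne1, cyclin E, fell from 16.44 and 16.54 to 13.32 and 13.56 (change -3.05 ± 0.12). The inhibitor Cdkn1b, p27, rose from 10.34 and 9.92 to 15.10 and 15.22 (change 5.03 ± 0.27). In the list of 21 genes of G1 and its inhibitors 11 fell and 6 rose. The median was -0.63, or -0.41 without D2-Control replicate 2 and -1.40 with dim probe sets left out. The share of falls was near that of all probe sets above background (49.4%, median -0.71).

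Mitosis genes fell by less. Of 25 measured genes of G2 and M phases, 15 fell and none rose (median -0.95, or -0.49 under quantile normalization, where 11 fell), and 2 of the 15 calls held under all 11 alternatives. Cdc20, which activates the anaphase-promoting complex, read 13.53 and 13.59 at D1 and 11.84 and 12.10 at D2, a change of -1.59 ± 0.18 (limma adjusted p = 5.32e-05). Ccna2, cyclin A, fell from 15.07 and 15.06 to 13.83 and 13.73 (change -1.29 ± 0.13). Mki67, a proliferation marker, stayed high, at 17.53 and 17.42 at D1 and 17.11 and 17.06 at D2 (change -0.39 ± 0.07). Ccnb2 (-0.19), Cenpe (0.22) and Ube2c (-0.01) did not pass. Of 15 histone genes 9 fell and 2 rose (median -0.28, or -0.43 under quantile normalization). Of all probe sets above background 49.4% fell, with a median of -0.71. H1f2, a linker histone, rose from 12.92 and 13.09 to 16.00 and 15.77 (change 2.88 ± 0.15), and H2bc4 rose by 2.73 ± 0.20. The other histone genes that passed fell, from -0.25 for H3c15 to -2.80 for Macroh2a1, a variant histone of inactive chromatin.

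E2F factors bind promoters of replication genes in other systems, so these promoters were searched for TTTCCCGC, TTTCGCGC, TTTGCCGC and TTTGGCGC on both strands, in the same windows as above. A match was present in 6 of 18 replication genes (33.3%), namely Cdc6, Mcm5, Mcm6, Orc1, Pola1 and Uhrf1, which all fell. Among G2 and M genes 1 of 21 had a match (4.76%), and among all named genes 441 of 15691 (2.81%). Mcm6 had the most matches, 3, of which 1 pair overlaps, and Orc1 had 1 match close to its start, so both are shown with matches in capitals.
Mcm6, chr1:128359706-128359955, minus strand: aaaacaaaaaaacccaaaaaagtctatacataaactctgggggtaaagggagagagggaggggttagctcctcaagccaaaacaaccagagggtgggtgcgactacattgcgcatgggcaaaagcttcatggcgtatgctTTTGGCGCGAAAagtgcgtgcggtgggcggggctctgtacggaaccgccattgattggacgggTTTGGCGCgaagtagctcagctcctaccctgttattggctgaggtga
Orc1, chr4:108579204-108579453, plus strand: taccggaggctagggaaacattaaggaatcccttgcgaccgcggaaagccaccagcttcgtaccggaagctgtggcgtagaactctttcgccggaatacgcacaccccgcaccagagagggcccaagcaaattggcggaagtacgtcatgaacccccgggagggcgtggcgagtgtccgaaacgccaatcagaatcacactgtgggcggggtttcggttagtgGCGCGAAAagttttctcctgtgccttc
Mcm6 itself read 15.44 and 15.41 at D1 and 13.26 and 12.97 at D2 (change -2.31 ± 0.17).

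Genes for making ribosomes fell further than the ribosomal proteins. Among all probe sets above background 49.4% fell (median -0.71). Of 20 genes of MYC and ribosome biogenesis, 17 fell and none rose (median -2.38), and 15 of the calls held under all 11 alternatives. Srm, spermidine synthase, read 13.61 and 13.63 at D1 and 7.57 and 8.28 at D2, a change of -5.70 ± 0.28 (limma adjusted p = 1.56e-07). Polr1b, a subunit of RNA polymerase I, fell from 12.83 and 12.91 to 7.85 and 7.90 (change -4.99 ± 0.22). Nop2, a nucleolar RNA methyltransferase, fell by 5.57 ± 0.42, and fibrillarin, Fbl, by 3.91 ± 0.26. Npm1, nucleophosmin, remained bright and fell from 16.46 and 16.71 to 14.34 and 14.33 (change -2.26 ± 0.10). The E-box CACGTG was present before the start of 1 of 14 of these genes (7.14%), Nop2, and in 7.92% of all named genes. Mtap, an enzyme of methionine salvage from polyamine synthesis, also stood among the 12 largest falls, from 11.48 and 11.78 to 4.07 and 6.33 (bound -4.15). Of 35 cytosolic ribosomal proteins 29 fell and none rose, with a median of -0.42, and 6 of these calls held under all 11 alternatives. Rpl14 read 17.33 and 17.24 at D1 and 16.29 and 16.27 at D2, the largest fall of the list (-1.0 ± 0.07). Rps14 read 16.88 and 16.87 at D1 and 16.62 and 16.69 at D2, a change of -0.22 ± 0.06 (limma adjusted p = 0.0162) that did not pass under 5 of the 11 alternatives (limma adjusted p between 0.0741 and 0.862).

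Genes of the respiratory chain mostly fell. Of 27 genes of the respiratory chain and ATP synthase, 22 fell and none rose (median -0.90), and 10 of the calls held under all 11 alternatives. Cox5a, of cytochrome oxidase, fell from 14.53 and 14.50 to 12.41 and 12.58 (change -2.02 ± 0.14), and Cycs, cytochrome c, changed by -2.0 ± 0.13. Of 25 genes of glycolysis and glucose transport, 13 fell and 4 rose (median -0.56, or -1.30 with dim probe sets left out). The falls included the enzymes Tpi1, from 12.72 and 12.76 to 8.88 and 9.02 (change -3.79 ± 0.27), Ldha (-3.12) and Gapdh (-1.24). Pkm, a pyruvate kinase gene, fell from 11.55 and 12.16 to 7.63 and 7.24 (change -4.42 ± 0.27). Bpgm, which makes the red cell phosphate that lowers the oxygen affinity of haemoglobin, was the other large rise beside Slc2a1: it read 8.59 and 8.87 at D1 and 15.54 and 15.12 at D2, a change of 6.6 ± 0.29 (limma adjusted p = 7.91e-08). The other two rises were Slc2a3, near background at D1 (bound 1.89), and Aldoc, near background in 3 of the 4 arrays. Of 15 cholesterol synthesis genes 7 fell and none rose (median -0.70, or -0.43 under quantile normalization, where 4 fell and 1 rose), and 3 of these calls held under all 11 alternatives. Those that fell included Dhcr7 (-2.03) and Idi1 (-1.90). Of all probe sets with a mean above background over the 8 cultured arrays, 49.4% fell (median -0.71). The shares of falls in the glycolysis and cholesterol lists were near that share.

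**Figure D2:**
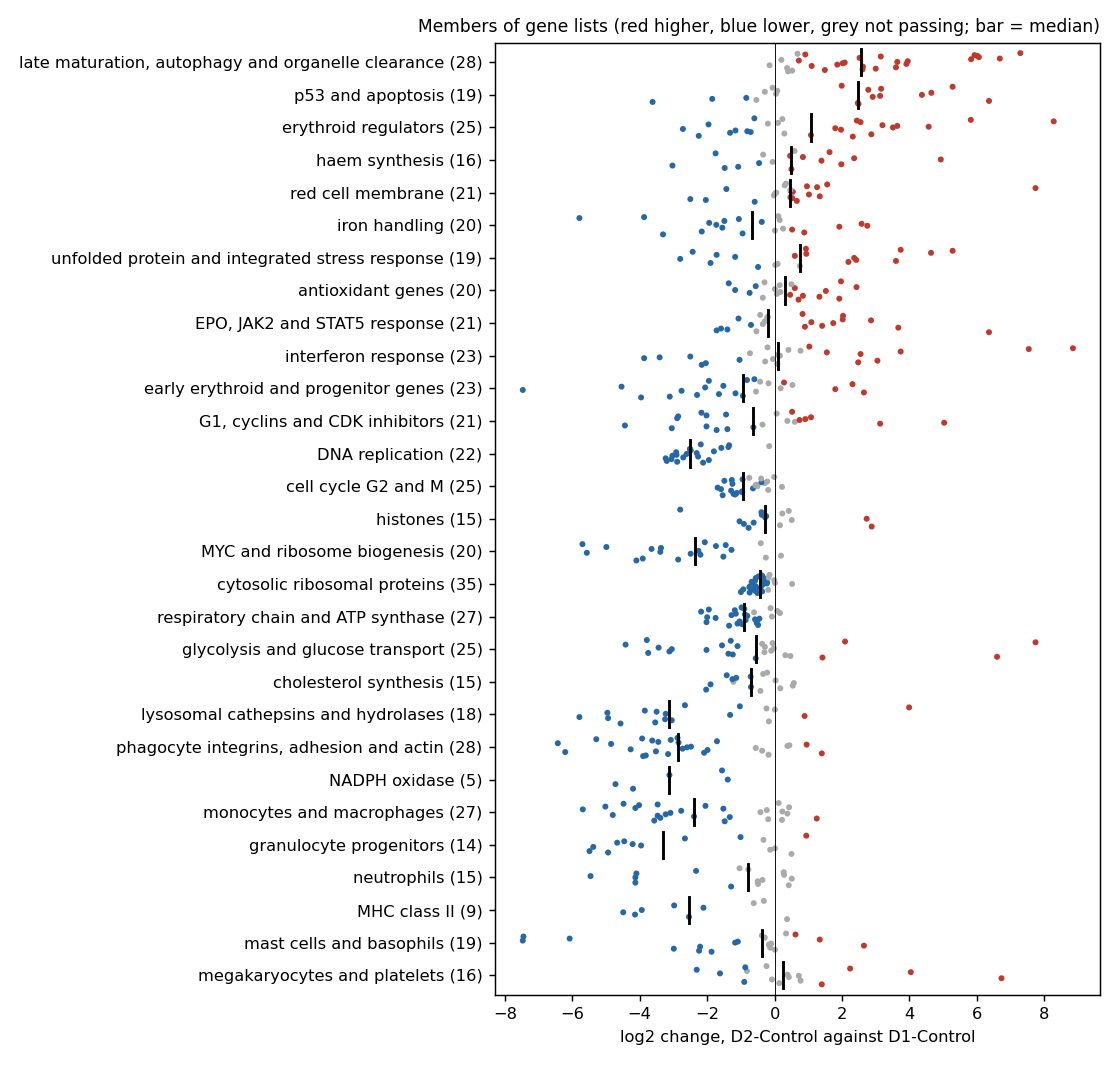
Change from D1-Control to D2-Control (log2, x axis) of each measured member of 29 gene lists (rows, with the number of members); points are genes, in red where they passed as higher, in blue where they passed as lower and in grey where they did not pass, and bars are list medians. Late maturation genes lie to the right (median 2.56), and replication, ribosome biogenesis, lysosomal and phagocyte genes lie to the left (medians from -2.38 to -3.14).

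Markers of monocytes and macrophages fell together with lysosomal and phagocyte genes, where 49.4% of all probe sets above background fell (median -0.71). In bulk samples fewer cells of a type and less RNA per cell cannot be told apart. Of 27 monocyte and macrophage markers 18 fell and 1 rose (median -2.39), and 16 of the falls held under all 11 alternatives; their mean signal was 8.70 and 9.15 at D1 and 6.76 and 6.78 at D2. Csf1r, the receptor of monocyte growth factor, read 11.84 and 12.23 at D1 and 7.36 and 7.12 at D2, a change of -4.80 ± 0.24 (limma adjusted p = 1.74e-07). Lyz2, lysozyme, fell from 14.08 and 14.46 to 10.35 and 9.93 (change -4.13 ± 0.19). Ly6c1 and Ly6c2, neighbouring and nearly identical surface protein genes whose probes may share signal, fell by 5.72 and 5.69. C1qa (0.22), C1qb (-0.19), Fcna (0.23) and Vcam1 (0.12) were near background in all 4 arrays and did not pass. The 1 rise of the list was that of the complement gene C1qc, near background at D1, from 6.73 and 6.20 to 7.68 and 7.76 (change 1.25, bound 0.10), a call lost without D1-Control replicate 2 and with all 20 arrays in 1 fit. Axl, a receptor kinase of phagocytes, fell from 8.04 and 8.77 to 5.04 and 4.63 (bound -0.92). Of 18 lysosomal genes 13 fell and 2 rose (median -3.14). Ctsh, a lysosomal protease, fell from 11.84 and 12.30 to 6.70 and 5.86 (change -5.79 ± 0.32, bound -4.59), and Pld4, a lysosomal nuclease, from 12.14 and 12.56 to 6.44 and 6.14 (bound -4.87). Lgmn, another lysosomal protease, went the other way, from 12.44 and 13.21 to 16.93 and 16.71 (change 3.99 ± 0.32), while Lamp1 (0.01) and Ctsb (-0.17) did not pass.

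Adhesion and cytokine receptor genes of phagocytes fell as well, where 49.4% of all probe sets above background fell (median -0.71). Of 28 genes for phagocyte integrins, adhesion and actin, 21 fell and 2 rose (median -2.86). Lgals3, galectin-3, read 12.85 and 14.25 at D1 and 7.78 and 6.46 at D2, a change of -6.43 ± 0.49 (limma adjusted p = 2.83e-06). Emb, embigin, a partner of lactate transporters, fell from 13.64 and 14.28 to 8.05 and 7.44 (change -6.21 ± 0.27). All 5 measured NADPH oxidase genes fell, with Cybb from 13.69 and 14.34 to 10.74 and 7.86, where the D2 arrays differed from each other by more than the D1 arrays did (change -4.72 ± 0.68). Of 25 receptor genes 15 fell and 3 rose (median -1.16, or -2.21 with dim probe sets left out). The 3 that rose were Il4ra, an interleukin 4 receptor subunit, from 10.13 and 9.27 to 15.68 and 15.21 (change 5.74 ± 0.26), Il1r1 (5.15, bound 4.81) and Csf2rb, the shared subunit of the receptors for IL-3 and GM-CSF (3.85 ± 0.33). Spi1, the myeloid factor PU.1, fell from 12.94 and 13.89 to 9.87 and 8.13 (change -4.42 ± 0.48), whereas 10 of the 17 myeloid transcription factors were near background in all 4 arrays.

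Granulocyte and basophil genes fell more often than they rose, as did all probe sets above background (49.4% lower, 19.9% higher, median -0.71). In the neutrophil list and in the basophil and mast cell list the share of falls did not exceed 49.4%. Of 14 granulocyte progenitor markers 9 fell and 1 rose (median -3.31). Elane, neutrophil elastase, read 14.41 and 15.19 at D1 and 8.84 and 9.78 at D2, a change of -5.49 ± 0.34 (limma adjusted p = 6.66e-07). Mpo, myeloperoxidase, fell from 14.37 and 15.29 to 10.03 and 10.28 (change -4.67 ± 0.26). D1 replicate 2 was the higher of the D1 arrays for both genes. Of 15 neutrophil markers 6 fell, none rose and 8 were near background in all 4 arrays; S100a9, at 7.76 and 9.17 at D1 and 7.86 and 7.5 at D2, did not pass (-0.78). The basophil and mast cell proteases Prss34 and Mcpt8 fell from 13.41 and 14.64 to 6.09 and 7.07 (change -7.45 ± 0.46, bound -6.54) and from 12.84 and 14.02 to 6.74 and 7.95 (change -6.08 ± 0.50). In that list of 19 genes 9 fell, 3 rose and 10 were near background in all 4 arrays. Prg2, of eosinophil granules, fell by 4.40, and of 9 MHC class II genes 6 fell and none rose (median -2.54), among them H2-Ab1 from 10.60 and 11.68 to 7.55 and 6.47 (change -4.14 ± 0.42).

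PU.1 is known to act at granulocyte and monocyte promoters, so the motif GAGGAAG was searched on both strands in the same windows. It was present in 4 of 11 granulocyte progenitor genes (36.4%), 6 of 20 monocyte genes (30%) and 4 of 13 neutrophil genes (30.8%), and in 12% of all named genes. The 4 granulocyte progenitor genes were Ctsg, Elane, Mpo and Prtn3, which all fell. Of the monocyte genes with a match Axl, F13a1 and Ly6c2 fell, C1qc rose, and Fcgr1 and Fcna did not pass. Of the neutrophil genes Csf3r, Mmp8 and S100a8 fell and Lcn2 did not pass. The promoters of Elane and Mpo, the pair described above, are shown, with the motif in capitals.
Elane, chr10:79886062-79886311, plus strand: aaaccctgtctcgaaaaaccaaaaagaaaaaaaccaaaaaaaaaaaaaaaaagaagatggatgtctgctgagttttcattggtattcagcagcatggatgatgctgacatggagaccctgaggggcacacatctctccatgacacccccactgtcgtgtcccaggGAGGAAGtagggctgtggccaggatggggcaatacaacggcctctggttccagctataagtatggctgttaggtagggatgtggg
Mpo, chr11:87793534-87793783, plus strand: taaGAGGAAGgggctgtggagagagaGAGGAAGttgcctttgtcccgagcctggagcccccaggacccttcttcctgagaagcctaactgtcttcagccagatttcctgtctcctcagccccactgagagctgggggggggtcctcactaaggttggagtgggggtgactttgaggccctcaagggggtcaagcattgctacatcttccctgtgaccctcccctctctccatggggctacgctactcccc

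Of 16 megakaryocyte and platelet genes 4 rose and 4 fell, and all of the rises but none of the falls held under the 11 alternatives. Both shares were near those of all probe sets (19.7% higher, 23.5% lower). Under quantile normalization 7 rose and 2 fell. Gp6, the collagen receptor of platelets, was near background at D1 (5.07 and 5.36) and read 11.99 and 11.90 at D2 (change 6.73 ± 0.30, bound 4.33). Plek, pleckstrin, rose from 9.92 and 9.53 to 13.60 and 13.93 (change 4.04 ± 0.23). The platelet chemokine Pf4, by contrast, fell from 13.18 and 12.19 to 11.05 and 11.08 (change -1.62 ± 0.40), which did not pass without D1 replicate 1 or when all 20 arrays were fitted together, and Itga2b (0.72) did not pass. Of 11 B cell markers 9, and of 14 T and NK cell markers 12, were near background in all 4 arrays. Cd3e read 6.28 and 6.15 at D1 and 6.07 and 6.54 at D2. Of 13 stromal and endothelial genes 9 were near background throughout, and Fn1, fibronectin, fell from 10.40 and 10.77 to 5.88 and 4.45 (bound -3.10).

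**Figure D3:**
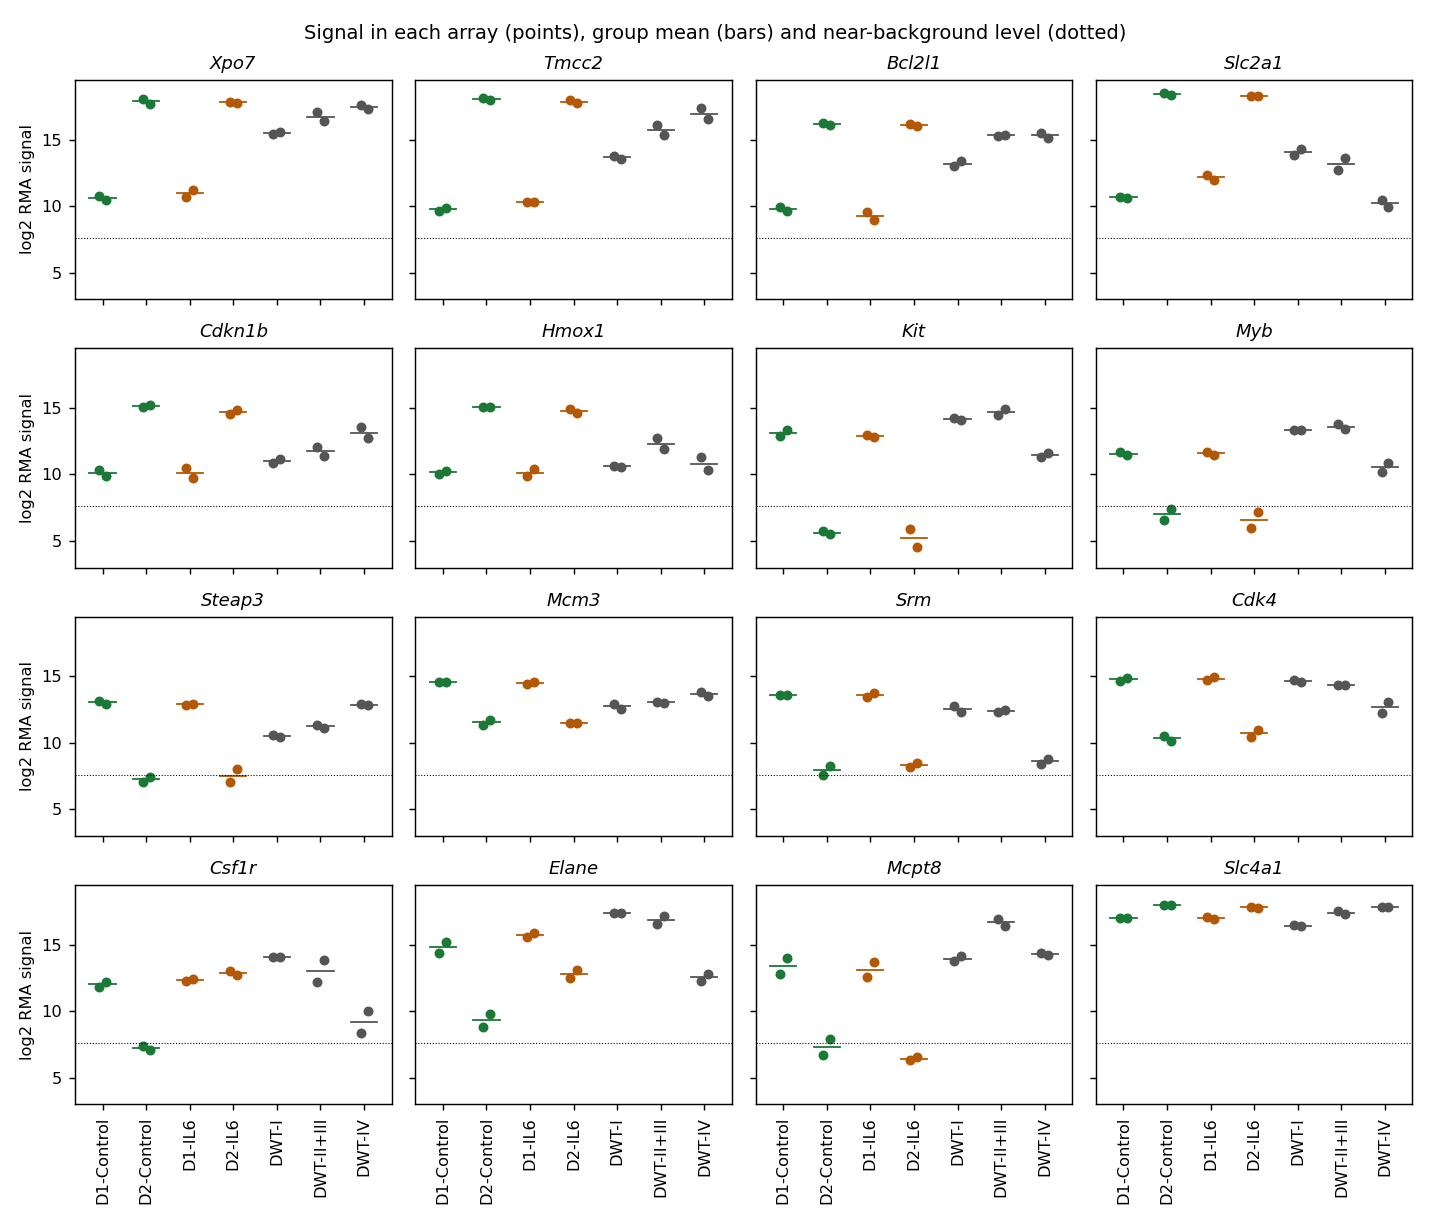
Log2 RMA signal (y axis) of 16 genes in each array (points) of the control cultures (green), the IL-6 cultures (orange) and the DWT stages (grey), with group means as bars and the mean near-background level of the cultured arrays, 7.60, dotted. At D2 Kit and Csf1r lie at or under the dotted line in the control cultures, and Csf1r lies far above it in the IL-6 cultures.

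The same step with IL-6 was compared to ask how it differed when the cytokine was present. With IL-6, 6493 probe sets passed (33.2%; 2543 or 13% higher, 3950 or 20.2% lower), and 5432 passed with the same sign in both cultures, which is 64.2% of the control calls and 83.7% of the IL-6 calls. The arrays of the 2 steps are separate. The test of the difference of the steps passed for 232 probe sets (1.19%), of which 229 (1.17%) were higher with IL-6 and 3 (0.0153%) lower; 223 of the 229 had fallen in the control culture and 6 had not passed there. The count was 120 without D1-Control replicate 2, 118 when the first D1-IL6 array was left out, 134 when the other was, and 54 when all 20 arrays were fitted together.

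Genes of monocytes and phagocytes were among those that differed. Of 27 monocyte and macrophage markers 18 had a difference that passed, and of 28 phagocyte adhesion and actin genes 17, against 1.17% of all probe sets. Lgals3 read 13.49 and 14.30 at D1-IL6 and 14.11 and 13.96 at D2-IL6, so that its change of -6.43 without IL-6 was 0.14 with it, a difference of 6.57 ± 0.69 (limma adjusted p = 0.00101). Mmp8, a neutrophil collagenase, fell by 5.46 without IL-6 and read 13.87 and 14.04, then 15.19 and 14.84, with it (difference 6.52 ± 0.57; limma adjusted p = 0.000379). For Ctsh the difference was 6.37 ± 0.46, for Pld4 6.35 ± 0.36 and for Emb 6.06 ± 0.39. Csf1r was present in all 4 IL-6 arrays, between 12.30 and 13.03 (difference 5.30 ± 0.34; limma adjusted p = 4.73e-05). Granulocyte genes were divided: Elane differed by 2.55 (limma adjusted p = 0.0319), while Mpo fell by 4.69 with IL-6 and by 4.67 without (limma adjusted p = 0.997). For the basophil genes Prss34 and Mcpt8 the differences were -0.20 and -0.59 and did not pass.

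No gene had steps that differed by this test (limma) in the lists of 22 replication, 25 G2 and M, 28 late maturation, 16 haem synthesis and 25 erythroid regulator genes, and 1 of 21 membrane genes did, Slc2a1. Over all probe sets 1.19% passed, so few or no calls would be seen in lists of this size at that share. An unadjusted p under 0.05 in that test was found for 1567 probe sets. Kit fell by 7.67 with IL-6 and Xpo7 rose by 6.87. Slc2a1 was 1 of the 3 probe sets with a lower step with IL-6: it began at 12.35 and 11.99 at D1-IL6 and reached 18.30 and 18.25, so its change was 6.10 against 7.74 (difference -1.63 ± 0.19; limma adjusted p = 0.00152). Il4ra began at 11.69 and 11.54 and reached 15.53 and 15.39 (difference -1.89 ± 0.37; limma adjusted p = 0.0401). Both genes were higher at D1 with IL-6 and at a like level at D2. The third, Lipf, was near background in all 8 cultured arrays.

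**Figure D4:**
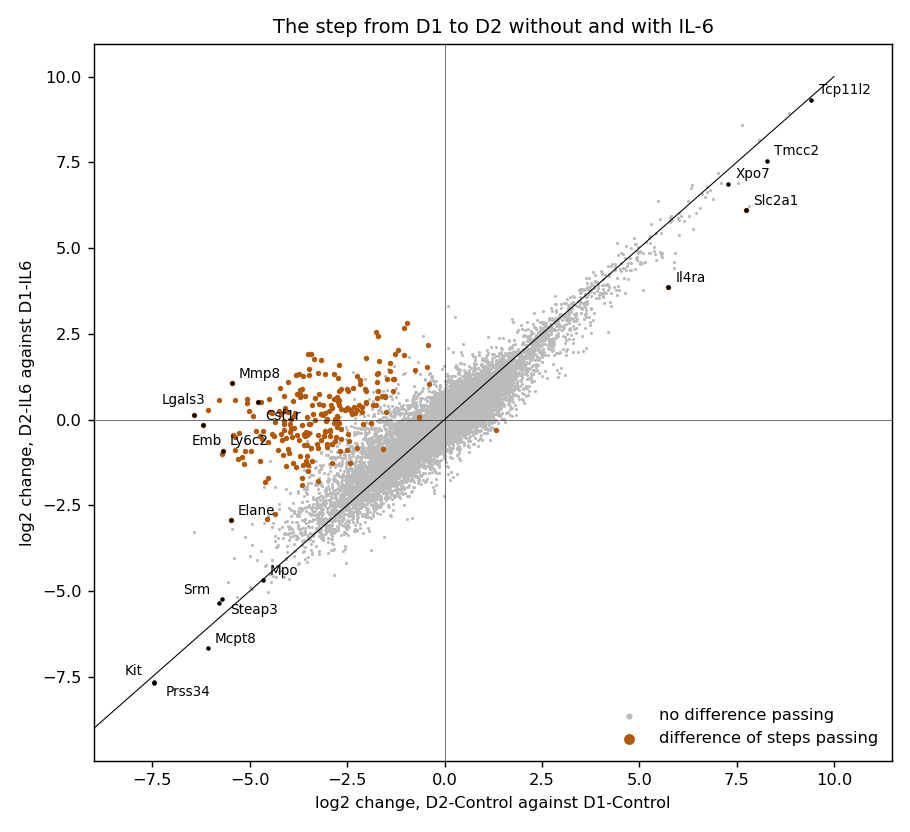
Change from D1 to D2 (log2) of each named gene without IL-6 (x axis) and with IL-6 (y axis); orange points are genes whose difference of steps passed, and the diagonal is equality. The orange points lie mostly at the left near a change of 0 with IL-6, and Kit, Mcpt8, Srm and Xpo7 lie close to the diagonal.

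The culture step was also set against the steps between the labelled erythroblast stages of DWT mice, which differ from the cultures in sex, age and source of the cells as well as in stage. The DWT arrays also held signal of other blood cells. Neutrophil markers had a mean of 15.93 and 16.18 at stage I, 11.18 and 13.05 at II+III and 7.94 and 9.89 at IV. Erythroblast markers had a mean of 13.17 and 13.01 at stage I, 14.90 and 14.18 at II+III and 15.88 and 15.62 at IV. From stage I to II+III 976 probe sets passed (4.99%; 2.69% higher, 2.29% lower) and from II+III to IV 4760 (24.3%; 10.4% higher, 14% lower). Of the 527 that were higher at II+III, 279 (52.9%) were also higher at D2, which is 7.24% of the culture rises; of the 449 that were lower there, 166 (37%) were also lower at D2, which is 3.6% of the culture falls. In that step 41 probe sets that rose in culture fell, and 101 that fell in culture rose. Of the 2029 that were higher at IV, 678 (33.4%) were also higher at D2, which is 17.6% of the culture rises, and of the 2731 that were lower at IV, 1731 (63.4%) were also lower at D2, which is 37.6% of the culture falls. In the late step 209 probe sets that rose in culture fell, and 552 that fell in culture rose. Genes of other blood cells also fell in the late step, against 14% of all probe sets. They were 24 of 28 phagocyte adhesion and actin genes, 19 of 27 monocyte and macrophage markers and 12 of 14 granulocyte progenitor markers. How far the falls shared with D2 are those of erythroblasts was not tested. The difference between the steps passed for 4304 probe sets (22%; 1577 higher and 2727 lower in culture) against the early step and for 4065 (20.8%; 1641 higher and 2424 lower in culture) against the late step.

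Many late maturation and cell cycle genes changed differently in culture and in the mice. For 17 of 28 late maturation genes the step in culture was higher than the early step by this test, against 8.06% of all probe sets, and for 18 it was higher than the late step, against 8.38%. Tmcc2 read 13.77 and 13.55 at stage I and 17.35 and 16.52 at stage IV, so that the D1 cultures lay under all DWT stages, and its culture change exceeded those of the early and late steps by 6.22 and 7.07. Xpo7 read 15.39 and 15.55 at stage I and 17.58 and 17.27 at stage IV, against 10.76 and 10.42 at D1 (differences 6.05 and 6.58). All 22 replication genes had a lower step in culture than from II+III to IV, against 12.4% of all probe sets; 17 of them rose in that late step and none fell, and so had 23 of the 25 G2 and M genes, all of which rose there. Orc1 read 9.37 and 9.71 at stage I and 13.19 and 13.59 at stage IV, while it fell in culture (difference against the late step -5.79; limma adjusted p = 2.8e-05). Of 21 membrane genes 17 rose from I to II+III and 12 had a lower step in culture, and of 16 haem synthesis genes 10 rose and 7 had a lower step in culture. Of 20 genes of MYC and ribosome biogenesis 17 had a lower step in culture than the early step, against 13.9% of all probe sets. p53 and apoptosis genes went the other way: 12 of 19 had a higher step in culture than the early step, and Cdkn1a read 11.67 and 11.26 at stage I and 8.90 and 6.15 at stage IV (differences 4.26 and 5.94).

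The extreme differences included genes described above. Slc2a1 read 13.86 and 14.29 at stage I, 12.71 and 13.64 at II+III and 10.47 and 9.95 at IV, so that it fell where it rose in culture (differences 8.64 and 10.70). Steap3 rose to 12.89 and 12.86 at stage IV and fell to near background in culture (difference -7.42 against the late step; limma adjusted p = 6.56e-07). Prss34 read 13.80 and 14.43 at stage I and 16.77 and 16.56 at II+III, the lowest difference against the early step, and Mcpt8 13.78 and 14.16, then 16.95 and 16.44 (difference -8.81). The mast cell protease Cpa3 likewise rose from 9.52 and 9.70 to 13.49 and 12.89 there (difference -6.57). Markers of basophils and mast cells were present in the DWT stages too, with a mean of 7.97 and 8.25 at stage I, and 9 of the 19 rose from stage I to II+III. Markers of other cells were brighter at stage I: the mean was 12.83 and 12.85 for eosinophils and 11.47 and 11.20 for monocytes and macrophages. From stage I to II+III 12 of 15 neutrophil markers fell, and 8 of 14 T and NK cell markers rose. Over all probe sets 2.69% rose and 2.29% fell in that step. Kit was high at stages I and II+III, between 14.10 and 14.90, and read 11.29 and 11.62 at IV. Prune2 and Dst were near background in all 6 DWT arrays, and Calcrl read between 8.61 and 10.15 there. Against the late step the differences of Ypel2 (9.53) and of the phosphodiesterase Pde3b (9.20) were also among the 5 highest, and those of Sec14l2 (-7.39), the phosphatase Acp5 (-6.67), Armc9 (-6.55) and the sterol transporter Abcg4 (-6.47) among the 5 lowest.

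**Figure D5:**
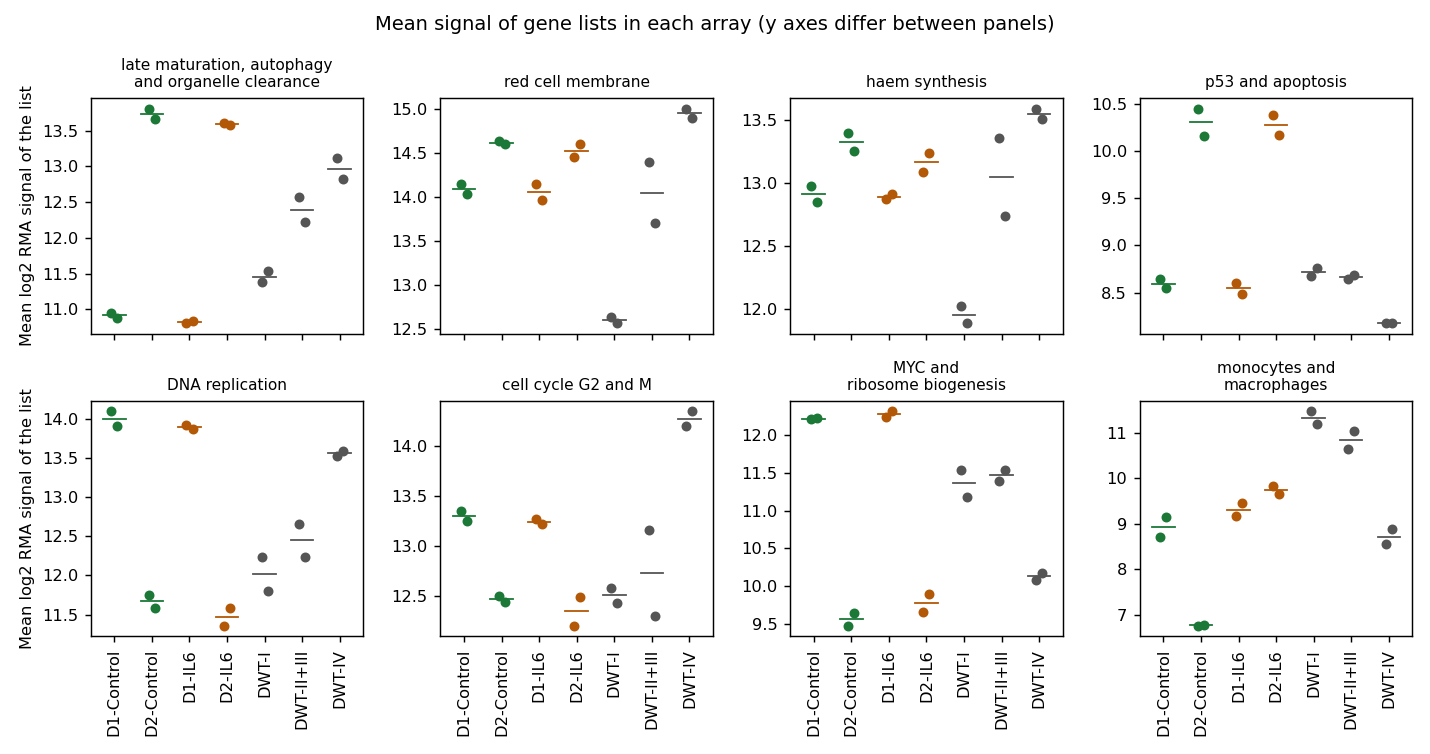
Mean log2 RMA signal over the measured members of 8 gene lists (panels, with different y axes) in each array (points) of the control cultures (green), the IL-6 cultures (orange) and the DWT stages (grey), with group means as bars. Replication and G2 and M genes fall from D1 to D2 and rise from stage I to IV, and monocyte genes fall in the control cultures and not in the IL-6 cultures.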

How the data were processed

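RNA of each sample was measured on 1 Clariom S mouse array. The authors deposited log2 signals that had been normalized with RMA in Affymetrix Expression Console, per the submitters' processing notes; versions and settings are not given in the sources used here. RMA values are relative, so a shift of all genes together could be lost. Arrays were grouped by the labels' titles. Probe sets with 1 gene symbol (19572 of 22206 transcript probe sets, for 19505 genes) were tested, and 2634 had no symbol. The D1 and D2 control arrays were fitted with limma 3.58.1 (R 4.3.3, intensity trend) together with the IL-6 cultures, and in a separate fit with the DWT stages for the comparisons with mice. P-values were Benjamini-Hochberg adjusted over all tested probe sets. The near-background level was the 95th percentile of 23 background probe sets in each array. With 2 arrays a group, the number of arrays limits the precision. Tested on simulated data for D2-Control against D1-Control over 19572 probe sets, the fit recovered 43 of 100 probe sets changed by 1 and 99 of 100 changed by 2 on the log2 scale, with 16 false calls. Far fewer probe sets were changed in the simulation than passed in the arrays, so these rates need not hold there.

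Named genes were the 12 highest and 12 lowest changes that passed, did not overlap and were above background in both arrays of a group (for a gene with several probe sets, the brightest), passing members of 39 gene lists (660 of 735 genes measured), a fixed set of erythroid genes, and the 5 extreme differences of steps each way. Members that did not pass, and genes chosen for promoters, were named after their values were seen. The comparison and the lists were chosen with earlier results of these data known. Alternatives were all 20 arrays in 1 fit, quantile normalization, median centring, no intensity trend, dim probe sets left out, all transcript probe sets, only the 4 arrays, and each array left out. Promoters came from RefSeq (GRCm38.p6). The other arrays of the series were not used beyond the fit of all 20. Python 3.11.15 with pandas 2.3.3, numpy 2.4.6 and matplotlib 3.10.9 made the tables and figures.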

Additional observations from a re-analysis of the deposited data

Results flagged for a closer look

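The difference between the steps with and without IL-6 passed for 232 probe sets (limma). Among the genes named, the step was higher with IL-6 for Lgals3 by 6.57, Mmp8 by 6.52, Ctsh by 6.37, Pld4 by 6.35, Emb by 6.06, Ly6c2 by 4.78 and Ly6c1 by 4.71 on the log2 scale. It was higher by 0.72 for Dusp1, a phosphatase of MAP kinases, and by 0.72 for Arpc2, a subunit of the ARP2/3 actin complex, which had the smallest passing differences among those higher with IL-6 that were named. For Slc2a1 the difference was -1.63, for Il4ra -1.89 and for Lipf, which was near background in every cultured array, -1.63.

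The difference between the culture step and the DWT step from stage I to II+III passed for 4304 probe sets, and that against the step from II+III to IV for 4065. Culture and mouse cells also differed in age, sex and source, and in the signal of other blood cells given above, and these cannot be told apart here.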

How the results depend on the processing

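The count for D2-Control against D1-Control stayed within 1.5 times of 8463 under the 11 alternatives, from 5735 to 7701 with 1 array left out and 6353 with all 20 arrays in 1 fit. The share of calls that were higher was 45.6%, 36.4% under median centring (2835 higher, 4948 lower), 29.3% with dim probe sets left out (1761 higher, 4241 lower), and 36.9% and 35.7% at its lowest with 1 array left out. With all 20 arrays in 1 fit the IL-6 step gave 4291 calls, the difference from the IL-6 step 54, and the differences from the DWT steps 2239 (early) and 2168 (late). With 1 array left out these differences ranged from 118 to 230, from 2777 (without DWT-I replicate 2) to 4018, and from 2698 (without D1-Control replicate 1) to 3887. With the replicate block, the sex of the DWT mouse, the DWT differences gave 4457 and 4201 calls. No paired analysis was possible for the cultures because the labels tie no culture array to a mouse. The values of the 12 highest, the 12 lowest and the measured genes of the fixed set were followed under the alternatives. Of these values 350 kept their side of the threshold, 12 lost it and 1 passed it. All that changed side were of the fixed set: Klf1, Epor, Myc, Rps14 and Gata1. The 12 highest and 12 lowest were chosen for large passing changes, which favours their stability. Tfrc, which did not pass, changed sign (-0.06 under quantile normalization, -0.01 under median centring). Of list medians 403 moved by less than the spread between replicates and 25 by more. Some alternatives could not move a median, because they leave each gene's log2 change as it was. These were all 20 arrays in 1 fit, no intensity trend, all transcript probe sets, and only the arrays compared. Their medians are among the 403, so that count overstates how stable the medians were. The causes of the moves were not tested. In the simulated data 43 of 100 changes of 1 on the log2 scale were called. In the arrays some changes under 1 passed, such as that of Slc4a1 (0.96). Signal near background has no reliable size.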
